A study of Mus musculus with 5 samples.

Results

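A set of 10 imprinted genes linked to growth was followed across the cell kinds of a Leydig cell reprogramming study: H19, Meg3, Cdkn1c, Grb10, Nnat, Mest, Dlk1, Plagl1, Peg3 and Sgce. They were chosen by name, as the probes whose gene symbol in the platform annotation is one of the 10, and all 10 had a named probe. Together they had 13 probes, with 2 each for Nnat, Mest and Dlk1 (3 genes) and 1 for each of the other 7, among the 26423 probes of each array. The iLC group is 2 arrays of mouse embryonic fibroblasts that received Dmrt1, Gata4 and Nr5a1, which encode gonadal transcription factors, by lentivirus and are called induced Leydig-like cells by the submitters. Leydig cells, which make androgens between the tubules of the testis, fill 2 arrays and came from mice of 56 days. The MEF group is 1 array of embryonic fibroblasts after transduction with a mock vector. Fibroblasts of both the iLC and MEF groups came from embryos of 13.5 days post coitus with head and visceral tissue removed, so they are mixed cultures of the remaining embryonic tissue. Infected fibroblasts were held with virus for 12 hours and then moved to a medium containing IGF (50 ng/ml) and PDGFAA (10 ng/ml), but the sources used here do not say whether mock-transduced cells were too. Strain and length of culture are likewise not given, and no label says whether the 2 arrays of a pair had separate cultures or animals behind them, so the spread behind each p-value may be technical.

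An imprinted gene is transcribed mainly from the copy inherited from 1 parent, as DNA methylation set in egg or sperm differs between the copies. Many such genes act on growth of the embryo and placenta, in general as growth promoters when the paternal copy is active and as growth restrainers when the maternal copy is active, and a number of them are switched down together in mouse organs after birth. Of the genes described here, H19, Meg3, Cdkn1c and Grb10 are expressed from the maternal copy in most tissues, and Nnat, Mest, Dlk1, Plagl1, Peg3 and Sgce from the paternal copy. The arrays measured total transcript and cannot tell the copies apart.

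Windows before the starts of Nnat, Mest and Grb10 are shown because a probe of each differed between iLC and Leydig cells, and because imprints are carried by methylated CG pairs, often near gene starts. Each is the 250 bases before an annotated start from RefSeq (build GRCm38.p6), written 5′ to 3′ on the gene's strand with every CG pair in capitals. The Nnat window is chr2:157559828-157560077 on the plus strand, and the Mest window, chr6:30737800-30738049 on the plus strand, precedes 1 of the 2 Mest starts in the table with the most CG pairs. The Grb10 window is chr11:12037421-12037670 on the minus strand, and the window of the other Grb10 start in the table held 8 CG pairs. Where a gene had several starts, the window with the most CG pairs was shown.
Nnat: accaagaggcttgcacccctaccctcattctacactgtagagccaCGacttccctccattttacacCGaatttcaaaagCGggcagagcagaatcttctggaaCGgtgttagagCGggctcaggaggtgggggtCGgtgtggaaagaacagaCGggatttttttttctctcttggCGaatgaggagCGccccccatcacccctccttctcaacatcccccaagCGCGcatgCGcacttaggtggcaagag
Mest: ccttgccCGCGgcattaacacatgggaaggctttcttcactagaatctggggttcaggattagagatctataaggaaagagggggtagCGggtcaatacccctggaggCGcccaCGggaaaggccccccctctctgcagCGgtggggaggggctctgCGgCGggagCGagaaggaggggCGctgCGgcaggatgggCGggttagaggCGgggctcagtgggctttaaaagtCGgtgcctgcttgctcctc
Grb10: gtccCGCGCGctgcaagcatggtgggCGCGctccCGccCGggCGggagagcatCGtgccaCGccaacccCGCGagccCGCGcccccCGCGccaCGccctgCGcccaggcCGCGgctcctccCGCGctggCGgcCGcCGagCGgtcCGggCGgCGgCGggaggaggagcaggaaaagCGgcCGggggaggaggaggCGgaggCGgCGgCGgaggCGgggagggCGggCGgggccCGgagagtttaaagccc
The Nnat window held 12 CG pairs, the Mest window 14 and the Grb10 window 40, against a median of 6 over the 32851 promoter windows of the table. At least as many as in Grb10 were found in 1.31% of those windows, as many as in Mest in 29.4% and as many as in Nnat in 33.5%. The letters TGCCGC, the core bound by the imprint-keeping factor ZFP57, were searched on both strands. They occurred 2 times in the Mest window and 0 times in the Nnat and Grb10 windows, and 8.68% of all windows held them. Windows were present for 7 of the 10 genes, 11 windows in all with 4 holding the motif, of which the 2 of Mest overlap each other. H19, Cdkn1c and Sgce had no window. A match describes these letters only, and methylation was not measured, so whether a shown window carries an imprint is not known here.

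Values below are deposited probe intensities on a linear scale. Differences are log2 differences of intensity plus 16, with standard errors (SE) and p-values from limma, adjusted by the Benjamini-Hochberg method over all 19084 genes. A gene is said to differ where the adjusted p is under 0.05. Median intensities were 1157 and 1215 on the iLC arrays, against 1111 and 1230 on the Leydig arrays and 1144 on the MEF array. The 1 MEF array borrowed its spread from both pairs, and so few arrays limit every value's precision. Of the Leydig markers, Nr5a1, a main regulator of steroid-making cells and 1 of the factors delivered to iLC, read 1509 and 1158 on the iLC arrays, against 68030 and 44721 on the Leydig arrays and 1265 on the MEF array. The sources used here give no probe sequences, so whether this probe reads the delivered copy of Nr5a1 is not known. Cyp11a1, the enzyme that starts steroid synthesis, read 603 and 907 in iLC, against 510 and 451 in Leydig cells and 562 in MEF. These readings lay below each array's median and were no higher in Leydig cells than in the others. Whether this probe responds to the transcript is not known here. Of the 5 Leydig markers with a named probe, 3 were higher in Leydig cells than in MEF, beside 3.34% of all genes. Their median difference there was 5.25, and 1 of the 5 was negative. The 2 Leydig arrays stood apart in germ cell transcripts: 9 germ cell markers summed to 10318 and 10010 on the iLC arrays, against 28619 and 742637 on the Leydig arrays and 8643 on the MEF array. Leydig replicate 2 carried most of that signal, and the calls of the members and of the related gene lists are given with the outcome when it was left out.

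H19, a maternally expressed long noncoding RNA that restrains growth and shares its control region with Igf2, had the widest span of levels among the members. It read 23246 and 9273 on the iLC arrays, against 1048 and 2287 on the Leydig arrays and 251981 on the MEF array. No pair of groups overlapped, with MEF above iLC and iLC above Leydig. Leydig cells were lower than MEF, by a log2 difference of -7.33 ± 0.70 (SE, limma adjusted p = 0.00466). iLC were higher than Leydig cells (3.23 ± 0.57, limma adjusted p = 0.0185). The iLC to MEF difference of -4.10 ± 0.70, with a 95% interval of -5.81 to -2.39, did not pass (limma adjusted p = 0.0742). It passed under 6 of 15 other settings, among them median centring (limma adjusted p = 0.029) and quantile normalization (0.0377). The call between iLC and Leydig cells was lost without iLC replicate 1 (difference 2.57, limma adjusted p = 0.0828), Leydig replicate 1 (2.67, 0.109) or Leydig replicate 2 (3.79, 0.076), and with aligned low ends (3.26, 0.0505). The call between Leydig cells and MEF was lost without Leydig replicate 2 (-7.89, limma adjusted p = 0.0513).

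The H19 transcript is also the precursor of miR-675, whose hairpin lies within the gene, so the RNA read by the H19 probe includes the source of the mature miRNAs below; 0 probes were named for the miRNA, and no level of it is given. The sequences are from RefSeq (GRCm38.p6, minus strand, chr7:142577112-142577133 for the 5p arm and chr7:142577078-142577099 for the 3p arm), with the seed, bases 2 to 8, in capitals. The arms have different seeds.
miR-675-5p: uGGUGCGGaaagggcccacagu
miR-675-3p: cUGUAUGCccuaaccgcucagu

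Among 11792 genes with a mean intensity of at least 1000, the ones nearest to H19 in pattern were Angptl7, Acta1 and Col8a1, with Euclidean distances of 1.07, 1.39 and 1.78 over the 5 centred log2 values. Acta1, the skeletal muscle actin gene, read 2141 and 2427 on the iLC arrays, against 128 and 166 on the Leydig arrays and 42869 on the MEF array. Like H19 it was highest in MEF and lowest in Leydig cells. Acta1 is also 1 of 8 skeletal muscle markers. Their sums were 7671 and 7654 in iLC, against 4603 and 4197 in Leydig cells and 47522 in MEF. Acta1 made up most of that MEF sum, so the high MEF sum rests on Acta1 and is not a separate observation. Of the 8, 3 had a positive and 5 a negative difference between iLC and MEF, with a median of -0.23. For 9 cell cycle genes the sums were 29396 and 28414 in iLC, against 28365 and 21300 in Leydig cells and 223145 in MEF. The part of either marker group in the H19 result was not tested, and in bulk samples fewer cells of a type and less RNA per cell cannot be told apart.

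Igf2, the paternally expressed growth factor gene beside H19 on chromosome 7, with 0 protein-coding genes between them, read 124903 and 127627 in iLC, against 37962 and 47017 in Leydig cells and 386593 in MEF. Its order of groups was that of H19. It was higher in iLC than in Leydig cells (log2 difference 1.58, limma adjusted p = 0.0257) and lower in Leydig cells than in MEF (-3.19, limma adjusted p = 0.00775), and the difference of -1.61 between iLC and MEF did not pass (limma adjusted p = 0.13). The iLC to Leydig call of Igf2 was lost without any 1 of the 4 paired arrays, and its Leydig to MEF call without Leydig replicate 2 (1.73 and -3.35 without that array, limma adjusted p = 0.0929 and 0.0575). Igf2r, the maternally expressed receptor that clears IGF2, read 28258 and 48530 in iLC, against 7728 and 15065 in Leydig cells and 73665 in MEF. It was lower in Leydig cells than in MEF (-2.77, limma adjusted p = 0.0382), with 1.78 between iLC and Leydig cells (limma adjusted p = 0.0609). The Leydig to MEF call of Igf2r was lost without any 1 of the paired arrays (-3.25 without Leydig replicate 2, limma adjusted p = 0.0874).

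**Figure D1:**
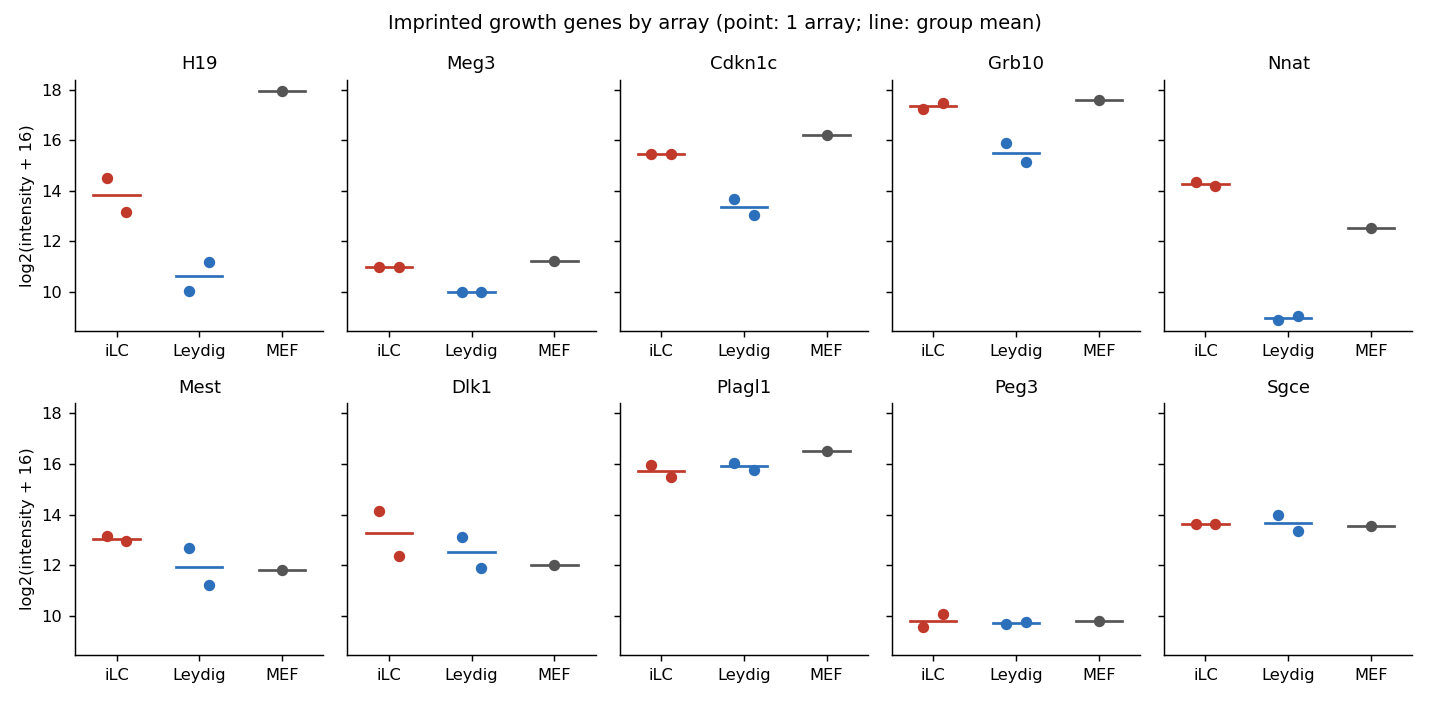
Level of each of the 10 imprinted growth genes on each array, as log2(intensity + 16) on the vertical axis, by group (iLC, 2 arrays; Leydig, 2 arrays; MEF, 1 array); points are arrays and lines group means. H19 and Nnat span the widest ranges, Cdkn1c, Grb10 and Meg3 are lowest in Leydig cells, and the groups of Plagl1, Peg3 and Sgce lie close together.

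Cdkn1c and Grb10, the growth-restraining members with protein products, were lower in Leydig cells than in both kinds of fibroblast culture. Cdkn1c, which encodes the cyclin-dependent kinase inhibitor p57, read 44650 and 45505 on the iLC arrays, against 13172 and 8543 on the Leydig arrays and 74993 on the MEF array. The iLC level was 4.24-fold that of Leydig cells (log2 difference 2.09 ± 0.35 SE, limma adjusted p = 0.0149). The Leydig level was below that of MEF by a log2 difference of -2.82 ± 0.42 (limma adjusted p = 0.0154). From MEF, iLC differed in Cdkn1c by -0.73 (95% interval -1.76 to 0.29, limma adjusted p = 0.467), an interval that includes both no difference and a more than 2-fold lower level. Without iLC replicate 1, iLC replicate 2 or Leydig replicate 2 its iLC to Leydig differences were 2.10, 2.07 and 1.77 and did not pass (limma adjusted p = 0.0791, 0.0739 and 0.0885). Without Leydig replicate 2 the Leydig to MEF call was also lost (-2.51, limma adjusted p = 0.0771).

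Grb10, an adaptor protein that binds and dampens the insulin and IGF1 receptors, read 155636 and 180290 on the iLC arrays, against 60265 and 36363 on the Leydig arrays and 199182 on the MEF array. The iLC readings and the MEF reading lay close together and above both Leydig readings. iLC were higher than Leydig cells by 1.84 ± 0.37 (SE, limma adjusted p = 0.0272), and Leydig cells lower than MEF by a difference of -2.09 ± 0.45 (limma adjusted p = 0.046). The iLC to MEF difference was -0.25 (95% interval -1.34 to 0.84, limma adjusted p = 0.839). Without iLC replicate 1, iLC replicate 2 or Leydig replicate 2 the iLC to Leydig call was lost (1.94, 1.73 and 1.47, limma adjusted p = 0.1, 0.119 and 0.131). The Leydig to MEF call of Grb10 was lost without any 1 of the 4 paired arrays (-2.45 to -1.72, limma adjusted p = 0.0649 to 0.147), with a pseudocount of 1 (limma adjusted p = 0.0737), with only the 2 groups compared (0.0865) and with aligned low ends (0.0682). Of the members, Cdkn1c and Grb10 had the most similar patterns, at a distance of 0.615 over the 5 centred log2 values.

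Meg3, the maternally expressed long noncoding RNA next to Dlk1, was tight within pairs. It read 2006 and 2029 on the iLC arrays, against 999 and 1016 on the Leydig arrays and 2353 on the MEF array. The groups did not overlap, yet the differences of 0.99 ± 0.30 (SE) between iLC and Leydig cells and -1.21 ± 0.36 between Leydig cells and MEF did not pass (limma adjusted p = 0.0902 and 0.122). Its iLC to MEF difference was -0.22 (95% interval -1.10 to 0.66). All 4 maternally expressed members had lower levels in Leydig cells than in either other group, 3 of them past the test in both comparisons, where 5.72% of all genes were higher in iLC than in Leydig cells and 3.97% lower in Leydig cells than in MEF. Groups that do not overlap in these directions were found for 28.9% and 44.1% of all genes. Of the 6 paternally expressed members 1 passed in each, Nnat. This grouping by parental copy was made after the values were seen and carries no test.

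Nnat, a small membrane proteolipid of the endoplasmic reticulum known from the developing brain and from endocrine and fat tissue, had its highest readings in iLC. Its brighter probe read 20707 and 18700 on the iLC arrays, against 462 and 518 on the Leydig arrays and 5897 on the MEF array. Its dimmer probe read 3679 and 1636 in iLC, against 54.4 and 77.3 in Leydig cells and 402 in MEF. Both probes gave the same order, iLC above MEF above Leydig cells, with no overlap. By the brighter probe, iLC exceeded Leydig cells 39.0-fold (log2 difference 5.29 ± 0.30 SE, limma adjusted p = 0.001), and the call held under all 16 other settings tried, with differences of 5.11 to 5.37. Leydig cells were lower than MEF by -3.55 ± 0.37 (limma adjusted p = 0.00572), a call lost without Leydig replicate 2 (-3.63, limma adjusted p = 0.0536). Its iLC to MEF difference of 1.74 ± 0.37, with a 95% interval of 0.83 to 2.64, did not pass (limma adjusted p = 0.108). It passed only when dim genes were left out (limma adjusted p = 0.047). The dimmer probe, adjusted over all named probes, differed by 4.93 between iLC and Leydig cells (limma adjusted p = 0.0023). It differed by 2.56 between iLC and MEF and by -2.37 between Leydig cells and MEF, neither past the test (limma adjusted p = 0.112 and 0.0636). Its Leydig readings lay near the low end of those arrays, whose 1st percentiles were 36.9 and 21.0. Blcap, the gene that holds Nnat inside its span on chromosome 2, read 39863 and 28327 in iLC, against 19529 and 27358 in Leydig cells and 21346 in MEF. Its differences were 0.54 between iLC and Leydig cells and 0.65 between iLC and MEF, neither past the test (limma adjusted p = 0.397 and 0.535).

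Mest, a paternally expressed hydrolase-like protein tied to embryonic growth and fat expansion, read 9001 and 7824 on the iLC arrays, against 6529 and 2357 on the Leydig arrays and 3606 on the MEF array. Both iLC readings were above the other 3. The differences of 1.09 ± 0.51 (SE) from Leydig cells and 1.22 ± 0.63 from MEF did not pass (95% intervals -0.15 to 2.34 and -0.31 to 2.74, limma adjusted p = 0.239 and 0.414). Leydig cells differed from MEF in Mest by 0.12 (limma adjusted p = 0.956). Its dimmer probe read 7232 and 6158 in iLC, against 2932 and 1620 in Leydig cells and 2136 in MEF. That probe differed between iLC and Leydig cells by 1.61 ± 0.39, just past the threshold over all named probes (limma adjusted p = 0.0498), so the probes of Mest disagree on that call but not on direction. Copg2, which overlaps Mest on chromosome 6, had a difference of 0.54 between iLC and Leydig cells (limma adjusted p = 0.425).

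Dlk1, a transmembrane relative of the Notch ligands that holds fat cell precursors undifferentiated and is known in fetal Leydig cells, varied within pairs about as much as between groups. Its brighter probe read 18287 and 5200 on the iLC arrays, against 8847 and 3790 on the Leydig arrays and 4112 on the MEF array. The iLC and Leydig pairs overlapped, the SD between the iLC arrays was 1.28 on the log2 scale, and no comparison passed (0.75 between iLC and Leydig cells, 1.24 between iLC and MEF, and 0.49 between Leydig cells and MEF, with limma adjusted p = 0.547, 0.542 and 0.823). The 95% intervals were -0.92 to 2.42, -0.80 to 3.29 and -1.55 to 2.54. Its dimmer probe read 351 and 384 in iLC, against 350 and 244 in Leydig cells and 363 in MEF and did not show the high reading on iLC replicate 1. Without iLC replicate 1 the iLC to Leydig difference of the brighter probe was -0.16. The genes nearest to Dlk1 in pattern were Prrx2, Tsc22d3 and Tbcel, at distances of 0.772, 0.808 and 0.809. Prrx2, a limb and mesenchyme homeobox gene, likewise read higher on the first array of each pair, at 26397 and 12320 in iLC, against 11241 and 5482 in Leydig cells and 8570 in MEF.

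Meg3 and Dlk1 lie on chromosome 12 with 0 protein-coding genes between them. Meg3 varied by an SD of 0.011 between the iLC arrays, where the brighter probe of Dlk1 varied by 1.28. Meg3 was lowest in Leydig cells, while the Leydig readings of the brighter Dlk1 probe lay on both sides of the MEF reading. In the comparisons with Leydig cells the dimmer Dlk1 probe had the signs of Meg3. Its differences were 0.31 between iLC and Leydig cells and -0.30 between Leydig cells and MEF, neither past the test (limma adjusted p = 0.598 and 0.767). Between iLC and MEF the signs differed, at 0.02 for that probe and -0.22 for Meg3. With the brighter probe, the distance between their patterns over the 5 centred log2 values was 2.12, against 0.615 for the closest pair of members.

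**Figure D2:**
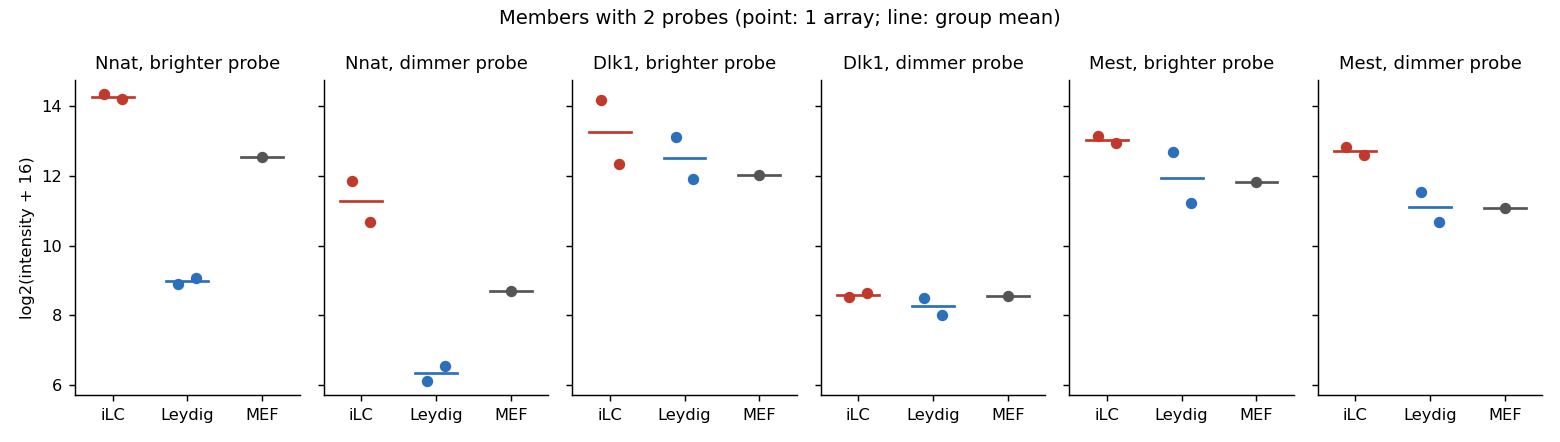
Levels of the 3 members with 2 probes each, as log2(intensity + 16) on the vertical axis, by probe and group (iLC, 2 arrays; Leydig, 2 arrays; MEF, 1 array); points are arrays and lines group means. Both Nnat probes place Leydig cells lowest, both Mest probes place the iLC arrays highest, and the probes of Dlk1 differ in the reading of iLC replicate 1.

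Plagl1, Peg3 and Sgce gave no call in any comparison. Plagl1, a zinc finger transcription factor that regulates other imprinted genes in the mouse, read 64441 and 45324 in iLC, against 68171 and 55145 in Leydig cells and 92809 in MEF. The MEF reading was the highest, and the iLC and Leydig pairs overlapped. Its differences were -0.18 between iLC and Leydig cells (95% interval -1.01 to 0.65), -0.78 between iLC and MEF (-1.80 to 0.24) and -0.60 between Leydig cells and MEF (-1.61 to 0.42). Peg3, a zinc finger protein of growth and maternal behaviour, read below each array's median, at 730 and 1058 in iLC, against 791 and 855 in Leydig cells and 865 in MEF. Both the Leydig readings and the MEF reading lay between the iLC readings, with differences of 0.09 between iLC and Leydig cells (95% interval -0.72 to 0.91), 0.02 between iLC and MEF (-0.97 to 1.02) and -0.07 between Leydig cells and MEF (-1.06 to 0.92). Sgce, the epsilon subunit of the sarcoglycan complex that ties the cytoskeleton to the matrix, read 12674 and 12738 in iLC, against 16176 and 10510 in Leydig cells and 11817 in MEF, so the Leydig readings spanned all others. Its differences were -0.04 between iLC and Leydig cells (95% interval -0.88 to 0.80), 0.10 between iLC and MEF (-0.92 to 1.13) and 0.14 between Leydig cells and MEF (-0.89 to 1.17). The intervals of these 3 genes include differences of close to 1 log2 unit or more, so an equal level was not shown. Among the neighbours, Peg10, adjacent to Sgce on chromosome 6, read 322 and 106 in iLC, against 48.2 and 97.5 in Leydig cells and 260 in MEF. Usp29, adjacent to Peg3 on chromosome 7, read 4988 and 5275 in iLC, against 4447 and 3175 in Leydig cells and 3549 in MEF. Neither passed in any comparison.

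Counted over the 10 genes, iLC exceeded Leydig cells in 4 and were lower in 0, where 11.4% of all genes differed (5.72% higher and 5.65% lower). Leydig cells had 0 higher and 4 lower than MEF, the same 4 genes (H19, Nnat, Cdkn1c and Grb10), where 7.3% of all genes differed (3.34% higher and 3.97% lower). These comparisons share the Leydig arrays. Of the comparison of iLC with MEF, limma called 0 of 10, where 0.561% of all genes were called (0.278% higher and 0.283% lower). At an unadjusted p under 0.05 there were 5 of 10 members between iLC and Leydig cells, 2 between iLC and MEF (H19 and Nnat) and 5 between Leydig cells and MEF, as for 26.9%, 15.7% and 19.8% of all genes. No other test tool was run. The medians of the 10 differences were 1.04 between iLC and Leydig cells, -0.10 between iLC and MEF and -0.90 between Leydig cells and MEF, beside -0.03, -0.11 and -0.10 over all genes. Both iLC readings lay above both Leydig readings for 6 of the 10 genes, as for 28.9% of all genes, and below for 0, as for 29%. Both iLC readings lay above the MEF reading for 4 genes and below it for 5, as for 34% and 44.4% of all genes. Both Leydig readings lay above it for 0 and below it for 7, as for 32.9% and 44.1%. Without Leydig replicate 2, the array with the high germ cell sum, most or all of the members' calls were lost in each comparison with Leydig cells. Most calls over all genes were lost too. The differences of the 4 called genes kept their direction. Leaving out any other 1 of the paired arrays also lowered the member counts and the counts over all genes in these comparisons. Between Leydig cells and MEF both counts fell furthest without Leydig replicate 2. The part of its germ cell transcripts in that fall was not tested. Every fit without 1 paired array, whichever it was, keeps 1 residual degree of freedom in place of 2.

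**Figure D3:**
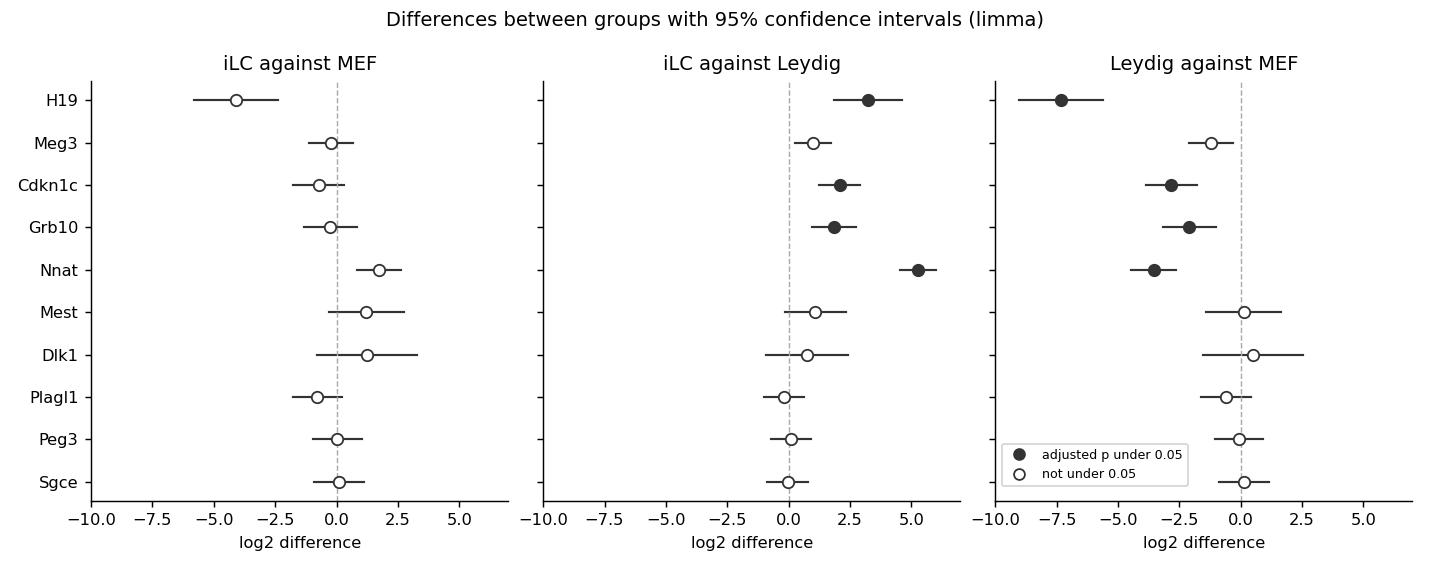
Log2 difference of each of the 10 genes (horizontal axis) in the comparisons of iLC with MEF, iLC with Leydig cells and Leydig cells with MEF; points are limma estimates, bars 95% confidence intervals, and filled points have an adjusted p under 0.05. H19, Cdkn1c, Grb10 and Nnat are filled in the comparisons with Leydig cells, and no point is filled between iLC and MEF.

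Fibroblast markers were lowest in sum on the Leydig arrays, as the 4 called genes were. For 9 of them the summed intensity was 803020 and 642512 in iLC, against 463112 and 299514 in Leydig cells and 1273320 in MEF, with 4 of 9 higher and 1 lower in iLC than in Leydig cells. Fn1, the fibronectin gene, read 169821 and 104543 in iLC, against 1039 and 673 in Leydig cells and 218059 in MEF. Its iLC to Leydig difference of 7.29 was the largest of the 9, whose median was 1.48 and lowest -2.41. Between Leydig cells and MEF 4 of the 9 were lower and 1 higher, beside 3.97% and 3.34% of all genes. For 5 smooth muscle and peritubular markers the sums were 536077 and 478245 in iLC, against 33772 and 49212 in Leydig cells and 584564 in MEF. For 8 macrophage markers they were 50035 and 104022 in iLC, against 24219 and 22647 in Leydig cells and 173135 in MEF. For 7 Sertoli markers the sums were 52272 and 89485 in iLC, against 341824 and 376579 in Leydig cells and 29749 in MEF, mostly from Clu, the 1 marker that passed between iLC and Leydig cells. Of these 7, 3 had a positive and 4 a negative difference there. For 5 endothelial markers the sums were 6321 and 7234 in iLC, against 14514 and 10399 in Leydig cells and 5004 in MEF. The higher Leydig sum came from Cdh5, and 3 of the 5 had a positive difference between iLC and Leydig cells. For the 5 Leydig markers with a named probe the sums were 87533 and 112821 in iLC, against 328861 and 358343 in Leydig cells and 5696 in MEF. The iLC sum was mostly Star and Hsd3b1. Between iLC and MEF 1 of the 5 passed and the median difference was 0.39, and between iLC and Leydig cells 3 were lower while 2 had a positive difference. No defining marker was at 0 in a whole group, and 1, the germ cell gene Akap4, read below 0 on iLC replicate 1. The part of these markers in the results was not tested.

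A wider list of 61 other imprinted genes, of which 53 had a named probe, had calls in both directions. Between iLC and Leydig cells 5 were higher and 3 lower (15.1%, beside 11.4% of all genes; median difference 0.15), and between Leydig cells and MEF 2 were higher and 3 lower (9.43%, beside 7.3% of all genes; median 0.04). Between iLC and MEF, where 0.561% of all genes were called, limma called 0 of 53 (median 0.11). The largest differences there were those of the dim Zim1 (-2.28, limma adjusted p = 0.101) and of Gnas (2.03, limma adjusted p = 0.235). Htr2a, a serotonin receptor gene, read 1085 and 1619 in iLC, against 216 and 149 in Leydig cells (2.78, limma adjusted p = 0.00681) and 606 in MEF. Phlda2, a maternally expressed restrainer of placental growth in the Cdkn1c domain with 1 protein-coding gene between them, read 3184 and 3145 in iLC, against 799 and 786 in Leydig cells and 1192 in MEF, and was higher in iLC than in Leydig cells (1.98, limma adjusted p = 0.0105). Pon3, a lactonase of the paraoxonase family, read 986 and 487 in iLC, against 4006 and 4836 in Leydig cells and 1361 in MEF, and was lower in iLC than in Leydig cells (-2.64, limma adjusted p = 0.0127). Dhcr7, the last enzyme of cholesterol synthesis, read 8316 and 7482 in iLC, against 19731 and 24643 in Leydig cells and 3695 in MEF, and was higher in Leydig cells than in MEF (2.57, limma adjusted p = 0.0152). Cobl, an actin nucleator beside the Grb10 region, read 1061 and 1504 in iLC, against 278 and 348 in Leydig cells and 2477 in MEF, the order of groups seen for Grb10 (limma adjusted p = 0.017 between iLC and Leydig cells and 0.0132 between Leydig cells and MEF). Without 1 of the paired arrays at a time the list's counts were 0 to 3 between iLC and Leydig cells and 0 to 4 between Leydig cells and MEF, and were 0 in both without Leydig replicate 2, so each call named here was lost without that array.

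**Figure D4:**
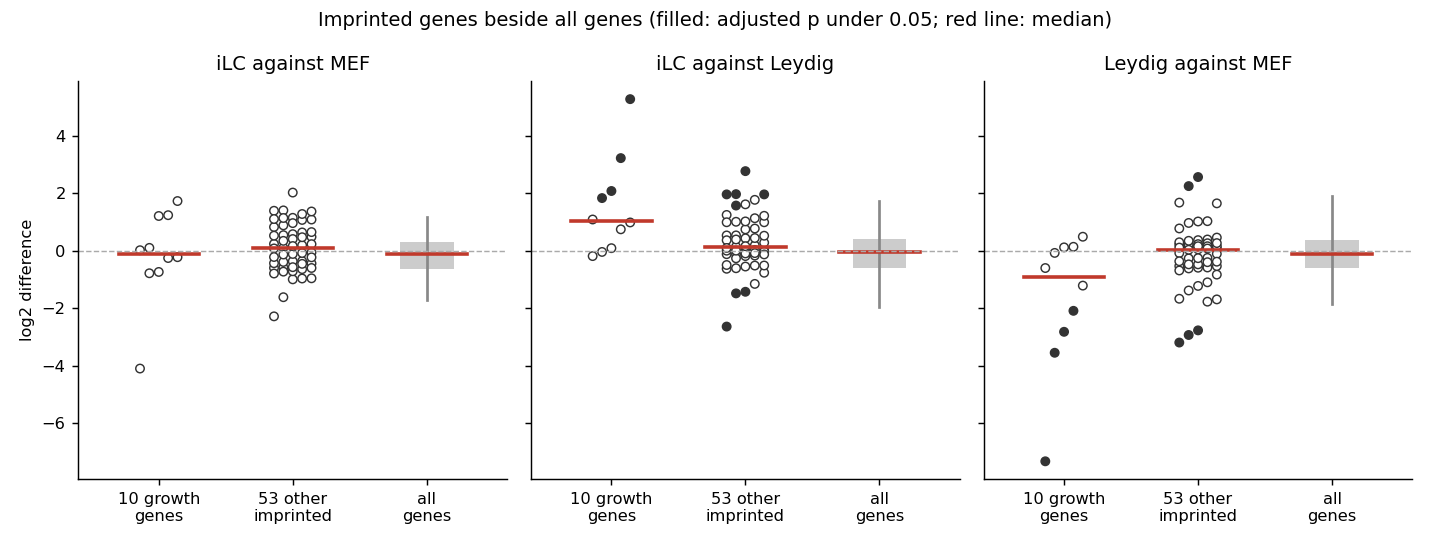
Log2 differences (vertical axis) of the 10 growth genes and 53 other imprinted genes as points, filled where the adjusted p is under 0.05, beside all 19084 genes, for which the box spans the quartiles and the line the 5th to 95th percentile; red lines are medians. The 10 genes have a median of 1.04 between iLC and Leydig cells and -0.90 between Leydig cells and MEF, while the other imprinted genes have medians of 0.15 and 0.04.

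Partners of the growth genes were described list by list, in the order of the members' roles. The share called over all genes was 11.4% between iLC and Leydig cells, 7.3% between Leydig cells and MEF and 0.561% between iLC and MEF. These short lists' counts stand against those shares. At a share of 0.561%, 0 calls say little about a short list. For Grb10, 14 insulin and IGF signalling genes were measured. Between iLC and Leydig cells 2 were higher, Igf2bp1 (2.90) and Irs2 (1.73), and 2 lower, Igf1 (-3.72) and Irs1 (-1.41), while Igf2bp1, an RNA-binding protein of Igf2 and other fetal transcripts, was the 1 gene lower in Leydig cells than in MEF (-4.31). Igf1 read 1292 and 697 in iLC, against 22100 and 7347 in Leydig cells and 2022 in MEF, highest in Leydig cells, where Igf2 was lowest. For Cdkn1c, the other 6 cyclin-dependent kinase inhibitors of its own and the INK4 family gave 2 higher and 1 lower between iLC and Leydig cells. Cdkn2b read 46882 and 43047 in iLC, against 2437 and 1582 in Leydig cells and 25188 in MEF (4.50 between iLC and Leydig cells, limma adjusted p = 0.00152). Cdkn1a was also higher in iLC than in Leydig cells (1.86) and Cdkn2c lower (-2.28). In the comparison of iLC with MEF, limma called 0 of these 6 and 0 of the 14 insulin and IGF genes.

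For Dlk1, 15 Notch pathway genes gave 1 call between iLC and Leydig cells, Nrarp (2.13), a Notch target that feeds back on the pathway, and 1 between Leydig cells and MEF, the receptor gene Notch1 (-1.72). Between iLC and MEF, where 0.561% of all genes were called, limma called 0 of the 15. Notch4 (1.64) and Dll3 (-1.16) had the largest differences there. For Sgce, 11 genes of the sarcoglycan and dystrophin complex gave 1 higher and 1 lower between iLC and Leydig cells, Dtna (3.34) and Dmd (-2.74), and Dmd was higher in Leydig cells than in MEF (2.24). For iLC against MEF limma called 0 of the 11, with Dtna (1.31) and Sgcd (-1.01) having the largest differences. For Plagl1, its relatives Plag1 and Plagl2 gave 0 calls, with differences of -0.39 and 0.11 between iLC and Leydig cells, -0.78 and 0.14 between iLC and MEF and -0.39 and 0.02 between Leydig cells and MEF. For Dlk1, Mest and Nnat, which are known in fat cell precursors, 9 adipocyte genes gave 1 higher and 2 lower between iLC and Leydig cells and 2 higher and 1 lower between Leydig cells and MEF. Fabp4, a fatty acid carrier of fat cells, read 4795 and 3143 in iLC, against 186 and 868 in Leydig cells and 12439 in MEF, while Zfp423, a preadipocyte regulator, read 368 and 397 in iLC, against 2167 and 1865 in Leydig cells and 221 in MEF. Over all the lists of related genes, imprint and methylation genes included, 21 were called between iLC and Leydig cells, beside 11.4% of all genes. Between Leydig cells and MEF 13 were called, beside 7.3% of all genes. The numbers measured are given with each list. Leaving out any 1 paired array lost most of the former calls, and leaving out Leydig replicate 2 lost most of the latter. Calls over all genes also fell in each of these fits. Those kept without Leydig replicate 2 were Igf1, Igf2bp1, Cdkn2b, Dmd, Dtna and Fabp4 between iLC and Leydig cells, and Fabp4 between Leydig cells and MEF.

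Genes that set and keep DNA methylation had differences of either sign. Of 16 measured, limma called 0 between iLC and MEF and 0 between iLC and Leydig cells, beside 0.561% and 11.4% of all genes. Between Leydig cells and MEF it called 1, Dnmt3l (6.25%, beside 7.3% of all genes). Uhrf1, which guides the maintenance methyltransferase to newly copied DNA, read 1718 and 1037 in iLC, against 5377 and 1787 in Leydig cells and 27884 in MEF, with a difference of -4.37 ± 0.70 (SE) between iLC and MEF that did not pass (limma adjusted p = 0.0657). Dnmt1, that methyltransferase, read 3659 and 2993 in iLC, against 7167 and 8505 in Leydig cells and 15083 in MEF (-2.18 ± 0.39 between iLC and MEF, limma adjusted p = 0.0783). Dnmt3l, a cofactor known from the setting of imprints in germ cells, read 2906 and 2706 in iLC, against 5856 and 3845 in Leydig cells and 417 in MEF. It was higher in Leydig cells than in MEF (3.46, limma adjusted p = 0.00844), while its difference of 2.70 ± 0.42 between iLC and MEF did not pass (limma adjusted p = 0.0622). The Dnmt3l call was lost without Leydig replicate 2 (3.76, limma adjusted p = 0.052). Zfp57, which keeps imprints in the early embryo, read 1068 and 1093 in iLC, against 1010 and 643 in Leydig cells and 1116 in MEF and gave no call. Uhrf1 and Dnmt1 were highest on the MEF array, as were the cell cycle sums given above, and the part of those in their levels was not tested.

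**Figure D5:**
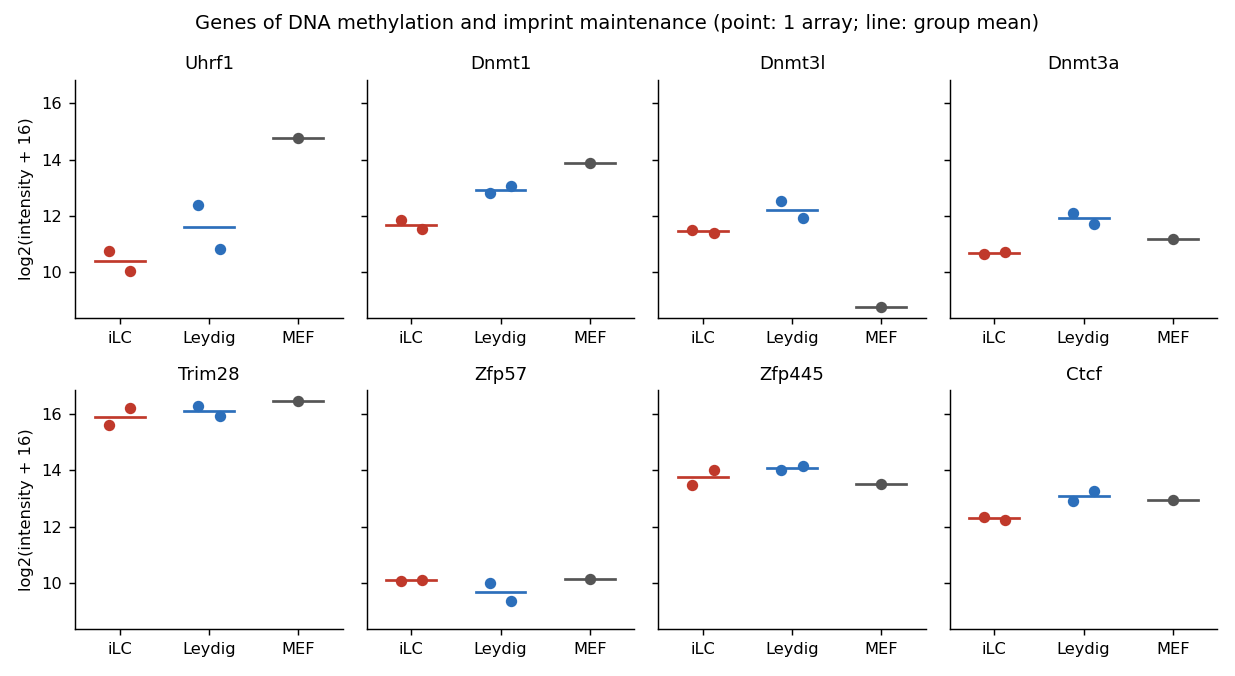
Levels of 8 genes of DNA methylation and imprint maintenance, as log2(intensity + 16) on the vertical axis, by group (iLC, 2 arrays; Leydig, 2 arrays; MEF, 1 array); points are arrays and lines group means. Uhrf1 and Dnmt1 are highest on the MEF array, Dnmt3l is lowest there, and the groups of Trim28 and Zfp445 lie close together.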

How the data were processed

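RNA of 5 mouse samples was amplified and labelled with Cy5, 1 array each, per the labels' protocols. The authors deposited probe intensities, linear in scale and with some values below 0; the sources used here name no background correction, normalization or software. Samples were grouped by title into iLC (2 arrays), Leydig (2) and MEF (1). Probes were named through the platform annotation: of 26423 probes 21876 had 1 gene symbol and 4547 none, and all 10 members were matched by Entrez identifier to RefSeq (GRCm38.p6, used for names, neighbours and sequences). 0 columns belonged to no sample. For a gene with several probes, the probe with the highest mean log2 value was used, giving 19084 genes.

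Values below 0 were set to 0 and 16 was added before log2, which shrinks differences of dim genes; low ends also differ between arrays (1st percentile -10.1 and 23.7 on the iLC arrays, against 36.9 and 21.0 on the Leydig arrays and 83.8 on the MEF array). limma 3.58.1 in R 4.3.3 (lmFit, eBayes) used all 5 arrays and a mean for each group, with 2 residual and 4.21 prior degrees of freedom, two-sided, with Benjamini-Hochberg adjustment and a threshold of 0.05. The script was tested on simulated data. The root mean square SD of a pair was 0.459 (iLC) or 0.548 (Leydig cells) on the log2 scale. Alternatives changed the scaling, pseudocount, filter, floor, probe choice, prior and arrays used; aligned low ends, in which each array's 1st percentile was subtracted, and the leave-one-out calls of the related lists were chosen after seeing the data. The members and gene lists were chosen with earlier results of these data known. Named genes were the members, the called or largest members of each list and the 3 genes nearest to H19 and to Dlk1; Igf2, other neighbours and single markers were named for their place beside a member or a result, and neighbours outside the rule after their values were seen.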

Additional observations from a re-analysis of the deposited data

How the results depend on the processing

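Between iLC and MEF, members called numbered 1 with median centring, quantile normalization, a pseudocount of 64, a floor at the 20th percentile and a trended robust prior (H19, lower in each) and 2 when genes under the median mean intensity were left out (H19 and Nnat), against 0 as reported and 0 without any 1 paired array. Between iLC and Leydig cells the member count of 4 was 1 to 3 without 1 array, and between Leydig cells and MEF 0 to 3. Over all genes, the 107 called between iLC and MEF became 339, 364, 9, 290, 395, 326, 354 and 6 with median centring, quantile normalization, pseudocounts of 1 and 64, the filter on dim genes, the floor, the trended robust prior and aligned low ends, and 0 with only the 2 groups compared or without 1 array. The split moved too: 53 higher and 54 lower became 130 and 209 with median centring, and 6 and 0 with aligned low ends. Between iLC and Leydig cells the 2170 calls became 696 to 1271 without 1 array and 3440 with the replicate block, and between Leydig cells and MEF the 1394 calls became 153 to 964. The cause was not tested. Leaving out an array of a pair, or a whole pair, also takes residual degrees of freedom. The filter leaves fewer genes to adjust over, and its prior is fitted to those genes alone. How far either moved the counts was not tested.

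Of 454 recomputed member differences 10 changed sign, all of genes that gave no call. Peg3 between iLC and MEF was -0.033 with median centring and -0.24 to 0.29 without 1 array, and between Leydig cells and MEF 0.022 with aligned low ends. The other sign changes came without 1 array: between iLC and Leydig cells the range was -0.16 to 1.66 for Dlk1, -0.17 to 0.36 for Peg3, -0.44 to 0.072 for Plagl1 and -0.35 to 0.27 for Sgce, and between Leydig cells and MEF -0.12 to 1.10 for Dlk1, -0.61 to 0.85 for Mest and -0.17 to 0.45 for Sgce. Meg3 and Peg3 were not tested with the filter. The iLC and Leydig arrays share replicate numbers 1 and 2; across genes the deviations of same-numbered arrays correlated at 0.056, so the numbers were not taken as pairs, and the replicate block, fitted to those 4 arrays, left the member count at 4. No block could include the lone MEF array. No detection calls were used, so how far dim probes such as those of Peg3 stood above background is not known here.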
